A study of Mus musculus with 12 samples.

Results

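The comparison set 1343KO embryoid bodies, a line derived by gene knockout from mouse embryonic stem cells, against wild-type (WT) embryoid bodies, both at day 8 of differentiation. Its members are the 4 libraries whose columns carry these line names and day 8, of 12 libraries in all. The 1343KO group has 2 libraries of the genotype labelled WT+1343KO-a14 and the WT group has 2 libraries. The other 8 libraries are the same lines at day 0 and day 16, again 2 of each. The label a14 is taken as 1 clone. Neither the gene behind the name 1343KO nor the sense of "WT+" (the parent line, or an added construct) is given in the labels. Undifferentiated cells were grown on gelatin in serum with leukaemia inhibitory factor (LIF), and bodies were grown in suspension in medium with less serum and no LIF, in both lines alike. Polyadenylated RNA was sequenced, and the values are FPKM, fragments scaled by transcript length and library size, which allow levels to be compared between genes of different length.

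Embryonic stem cells hold the state of the early epiblast through a network of transcription factors around Oct4, Nanog and Sox2, and LIF helps to sustain it. When the cells are left to aggregate without LIF, the network is normally shut down, the cells pass through a state like the epiblast after implantation, and the outer layer and inner cells then form extraembryonic endoderm and the derivatives of the 3 germ layers. By about the time sampled here, bodies often form blood islands with embryonic red cells, endothelium, yolk sac endoderm that secretes plasma proteins, and beating heart muscle. The series asks whether long noncoding RNAs, and the small nucleolar RNA SNORA73, are needed for the stem cell state or for leaving it.

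At day 8 the lines differed across this programme. The 1343KO bodies had high levels of the pluripotency network and of genes of the epiblast after implantation, and WT bodies had high levels of embryonic globins, endothelial, yolk sac, mesoderm, matrix and Hox genes. A gene was tested if 2 or more of the 12 libraries had 1 FPKM of it or more. Of the 16289 such genes, 6973 differed between the lines, which is 42.8% of the genes tested. The threshold was an adjusted p of 0.05 in limma, a linear model of log2(FPKM + 1), and log2 differences below are on that scale, 1343KO minus WT, which understates the change of low genes. Of the genes tested, 3788 were higher in 1343KO bodies (23.3%) and 3185 were lower (19.6%). By size, 1494 of the higher and 1510 of the lower genes differed at least 2-fold, 336 and 362 at least 4-fold, and 88 and 84 at least 8-fold. In all 6973 (42.8%) the libraries of the lines did not overlap, so for a called gene the lack of overlap below describes its values and adds no evidence. With or without a call, both 1343KO libraries lay above both WT libraries in 38.3% of the genes tested and below them in 32.5%.

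The sum of FPKM was 517962 and 510811 in 1343KO libraries, against 444355 and 452057 in WT libraries, so the scale of the values is not the same in the lines. After scaling each library to the same sum (TPM), 2808 genes were higher in 1343KO bodies (17.2%) and 4105 were lower (25.2%), 42.4% together, so that 40.6% of the calls were higher in place of 54.3%. That scaling moved the median log2 difference of all genes by -0.13. Genes of high level moved by more, such as Dppa5a (3.96 to 3.77) and Rbp4 (-4.86 to -5.06). Small changes therefore depend on the scaling, also some that are larger than the shift of the median. Under median-of-ratios scaling 3414 were higher (21%) and 3511 lower (21.6%), 42.5% together, and 49.3% of the calls were higher. No gene passed in opposite directions as deposited and after TPM scaling, and 2808 higher and 3184 lower genes passed under all 3 scalings.

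**Figure D1:**
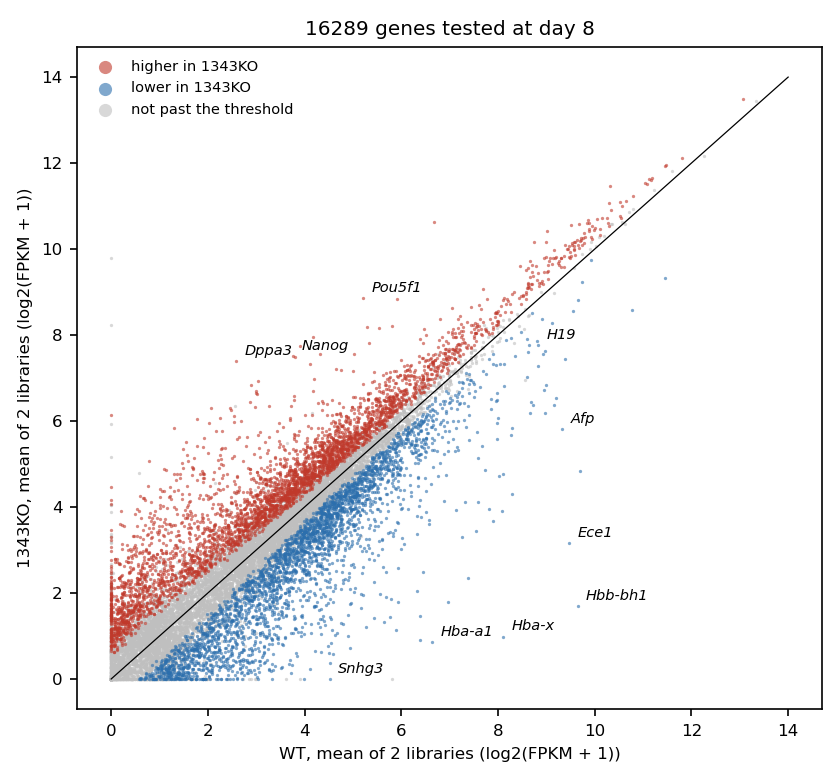
Mean level of each of the 16289 tested genes in 1343KO bodies (vertical axis) and WT bodies (horizontal axis), both as log2(FPKM + 1) of the mean of 2 libraries at day 8. Red points passed as higher in 1343KO, blue points as lower and grey points did not pass. The line marks equal levels, and Hbb-bh1, Hba-x and Ece1 lie far below it while Dppa3, Nanog and Pou5f1 lie above.

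The 2 libraries of each line were close to each other. Pearson's correlation across genes of log2(FPKM + 1) was 0.970 between the 1343KO libraries and 0.975 between the WT libraries, against 0.879 to 0.886 between lines. The depth is not given. Estimated from the spacing of low FPKM values with an assumed 200 nt fragment, it was about 8083000 and 4883000 fragments in 1343KO libraries and 7658000 and 6333000 in WT libraries. Whether the 2 libraries of a line came from separate cultures is not labelled, and the spread behind each p-value may therefore be technical. An exact permutation test of 2 against 2 libraries cannot go below p = 0.333, so every call rests on the spread that limma pools over genes and over the 6 groups. In bulk RNA, fewer cells of a type and less RNA per cell cannot be told apart.

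Y-linked genes and genes of chromosome 8 also differed between the lines at day 8, and the cause was not tested. The Y-linked gene Eif2s3y, a translation initiation factor subunit, had 0.379 and 0.209 FPKM in 1343KO bodies, against 23.2 and 20.6 FPKM in WT bodies. Uty and Ddx3y, both Y-linked, were lower with log2 differences of -2.65 and -2.59. The 3 tested genes of the Y-linked list had median log2 differences of -2.54, -2.65 and -2.52 at days 0, 8 and 16. None of the 3 passed the test of day 8 minus day 0 or of day 8 minus day 16. Genes of chromosome 8 with a mean of at least 20 FPKM had a median log2 difference 0.42 below that of all other chromosomes. Of 779 tested chromosome 8 genes, 86 were higher in 1343KO bodies and 264 lower, while the other autosomes and X lay between -0.18 for X and 0.15 for chromosome 5. Among genes named below, Zfp42, Cdh1, Cdh3, Cdh5, Hand2, Klf1, Col4a1, Sox1, Nrp1 and Hsd11b2 lie on chromosome 8. With both chromosomes left out, 3695 genes were higher and 2910 lower. Of the endocytic and basement membrane genes described below 12 were then lower in place of 14, with a median of -1.34 in place of -1.68. Of the globin and red cell genes 12 were lower in place of 13, with a median of -1.40 in place of -1.92.

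**Figure D2:**
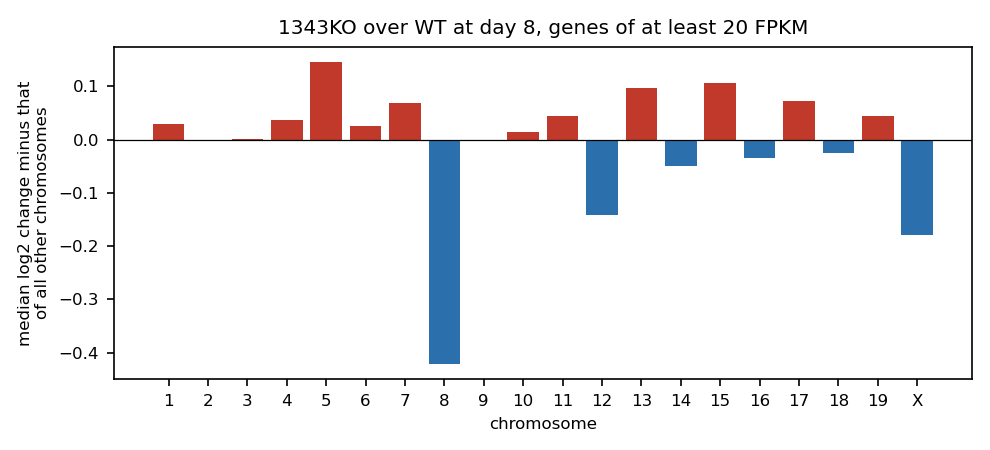
Median log2 difference, 1343KO minus WT at day 8, of the genes on each chromosome with a mean of at least 20 FPKM in the 4 libraries, minus the median over all other chromosomes. Chromosome 8 stands at -0.42, while every other chromosome shown lies between -0.18 and 0.15.

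The small nucleolar RNA named in the title is encoded in mouse by the pair Snora73a and Snora73b. Both lie inside Snhg3 (chr4:132348014-132353686 of GRCm38, minus strand), a noncoding host gene on chromosome 4, and Snhg3 in turn overlaps Rcc1 (chr4:132331919-132353605, minus strand), which encodes the chromatin-bound exchange factor of the GTPase Ran. SNORA73, also called U17, is a box H/ACA RNA that takes part in cutting the ribosomal RNA precursor. The pair is shown because of its place in the title. Capitals mark the ACA box, found 3 bases from the 3′ end of each, and the sequences are the GENCODE M21 transcripts in DNA letters, 205 bases each, with 198 identical positions (96.6%).
Snora73a (chr4:132352775-132352979, minus strand): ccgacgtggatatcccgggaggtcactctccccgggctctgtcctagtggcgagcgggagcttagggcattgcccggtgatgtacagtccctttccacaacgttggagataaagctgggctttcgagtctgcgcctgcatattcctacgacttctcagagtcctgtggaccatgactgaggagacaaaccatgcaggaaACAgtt
Snora73b (chr4:132352322-132352526, minus strand): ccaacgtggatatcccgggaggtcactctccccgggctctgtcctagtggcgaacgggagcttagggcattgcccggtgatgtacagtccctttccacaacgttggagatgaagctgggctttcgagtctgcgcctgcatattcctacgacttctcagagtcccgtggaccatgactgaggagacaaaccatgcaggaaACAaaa

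Libraries of polyadenylated RNA do not measure these short RNAs. Snora73a was listed at 10.7 and 0 FPKM in 1343KO bodies and at 0 in both WT bodies, and Snora73b was at or near 0 in all 4. The host gene Snhg3 was listed at 1.1e-242 and 0 FPKM in 1343KO bodies, against 13.7 and 30.2 FPKM in WT bodies. That is no expression that the table resolves in either 1343KO library and a clear level in both WT libraries (adjusted p = 9.36e-05). The difference was not particular to day 8. At day 0 Snhg3 had 1.57 and 0 FPKM in 1343KO cells, against 61.1 and 47 FPKM in WT cells. At day 16 it was listed at 0 in both 1343KO libraries, against 16.7 and 8.31 FPKM in WT bodies. Neither day 8 minus day 0 nor day 8 minus day 16 passed in limma (adjusted p = 0.511 and 0.535). Rcc1 had 35.7 and 36 FPKM in 1343KO bodies, against 17.9 and 26.2 FPKM in WT bodies, a log2 difference of 0.7 ± 0.15 SE (adjusted p = 0.00435). Because the genes overlap on 1 strand, the split of reads between Snhg3 and Rcc1 is uncertain. Since the labels tie the line's name to no gene, the loss of Snhg3 signal in the line does not check a label.

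The naive pluripotency network was far higher in 1343KO bodies. Of 25 listed genes of the naive state, all tested, 24 were higher and 1, Tbx3, was lower, with a median log2 difference of 3.65 against 0.06 over all genes tested. Summed over the list, the level was 3944 and 3813 FPKM in 1343KO bodies, against 347 and 384 FPKM in WT bodies. Without chromosomes 8 and Y the count was 22 higher and 1 lower.

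The promoter of Nanog, a homeodomain factor that stabilises the network, is shown because a joint site for Sox2 and Oct4 in it is the textbook example of how the network's members drive each other. The 250 bases before the annotated start are given from RefSeq (GRCm38.p6, chr6:122707239-122707488, plus strand), with capitals on the joint Sox2 and Oct4 motif, CATTGT and ATGCAAA 1 base apart, searched on both strands.
Nanog promoter: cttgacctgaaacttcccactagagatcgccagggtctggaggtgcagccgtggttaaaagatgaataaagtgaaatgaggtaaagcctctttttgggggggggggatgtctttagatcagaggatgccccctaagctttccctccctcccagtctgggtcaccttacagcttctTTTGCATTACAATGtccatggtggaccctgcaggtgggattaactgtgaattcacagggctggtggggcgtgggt
The motif occurs in 2 of 32851 RefSeq promoter windows of this length (0.00609%), which are the 2 windows listed for Nanog itself.

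Pou5f1 (Oct4, chr17:35506018-35510772) had 469 and 453 FPKM in 1343KO bodies, against 35.6 and 36.2 FPKM in WT bodies. This is 12.8-fold higher in FPKM, a log2 difference of 3.65 ± 0.09 SE (adjusted p = 2.95e-08). The labels call the cells of every library embryonic stem cells, and by this marker the WT bodies were far below the 1343KO bodies. Nanog had 176 and 185 FPKM in 1343KO bodies, against 12.9 and 12.3 FPKM in WT bodies, 14.3-fold higher (3.74 ± 0.08 SE, adjusted p = 1.99e-08). Sox2, the partner of Oct4 on DNA, had 188 and 188 FPKM in 1343KO bodies, against 18.5 and 19.5 FPKM in WT bodies. In all 3 the 1343KO libraries stood clear of the WT libraries, and the libraries of a line were close to each other. Esrrb, an orphan nuclear receptor of the naive state, had 81.2 and 73.7 FPKM in 1343KO bodies, against 2.62 and 3.74 FPKM in WT bodies (24.3-fold higher, 4.24 ± 0.12 SE, adjusted p = 4.72e-08). Zfp42 (Rex1), a zinc-finger marker of undifferentiated cells, had 106 and 99.1 FPKM in 1343KO bodies, against 6.08 and 7.77 FPKM in WT bodies (3.71 ± 0.11 SE). Klf4, a LIF target, had 18.4 and 20.3 FPKM in 1343KO bodies, against 6.45 and 4.81 FPKM in WT bodies (1.63 ± 0.15 SE), and Tfcp2l1 had 16.5 and 17.7 FPKM in 1343KO bodies, against 12.1 and 11.7 FPKM in WT bodies (0.49 ± 0.09 SE). Tbx3, a T-box factor that also acts in endoderm and mesoderm, was 3.15-fold lower in 1343KO bodies, with 9.86 and 7.51 FPKM, against 27.4 and 27.3 FPKM in WT bodies.

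Other stem cell and germ cell genes were among the largest rises. By the rule for named genes, the 15 largest rises were led by Dppa3 (Stella), a maternal and germ cell protein that protects methylation, with 175 and 159 FPKM in 1343KO bodies, against 6.61 and 3.42 FPKM in WT bodies, 33.4-fold higher (4.86 ± 0.33 SE, adjusted p = 5.28e-06). Nr0b1 (Dax1), a nuclear receptor corepressor, had 36.6 and 29 FPKM in 1343KO bodies, against 0.418 and 1.001 FPKM in WT bodies. Dppa5a, a small RNA-binding protein, reached 1596 and 1557 FPKM in 1343KO bodies, against 85.9 and 116 FPKM in WT bodies. In each of these both 1343KO libraries lay far above both WT libraries. Dppa2, a chromatin factor of early embryos, had 44.4 and 44.8 FPKM, against 2.36 and 1.47 FPKM in WT bodies. Spp1 (osteopontin), a secreted phosphoprotein, had 123 and 119 FPKM, against 5.94 and 8.58 FPKM in WT bodies. Calcoco2, an autophagy receptor, had 58 and 53.8 FPKM, against 1.43 and 1.49 FPKM in WT bodies. A pair of germ line genes were among the 15, namely Cyct, the testis form of cytochrome c (3.87 on the log2 scale), and Tdrd12, a tudor protein of the piRNA pathway (3.8). Another of the 15, Snurf, had 13.9 and 17.6 FPKM in 1343KO bodies and was listed at or near 0 in WT bodies. Snurf shares its transcript with Snrpn, so its value is uncertain.

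Noncoding RNAs and chromatin proteins of stem cells moved the same way. Of 13 tested noncoding RNAs known to be high in stem cells, 9 were higher and 2, Platr15 and Platr25, lower, with a median of 2.12. Lncenc1, a noncoding RNA linked to glycolysis in naive cells, had 77.3 and 79.1 FPKM in 1343KO bodies, against 4.12 and 4.91 FPKM in WT bodies. Platr10 had 71.4 and 61 FPKM in 1343KO bodies, against 2.05 and 5.48 FPKM in WT bodies. Platr15 went the other way, with 1.17 and 1.52 FPKM, against 5.62 and 5.42 FPKM in WT bodies. Of 20 chromatin and other regulators 16 were higher and 2 lower (median 1.34). Utf1, a chromatin factor of undifferentiated cells, had 227 and 203 FPKM in 1343KO bodies, against 12.7 and 15.3 FPKM in WT bodies, 15.4-fold higher (3.85 ± 0.11 SE, adjusted p = 4.72e-08). L1td1, a protein derived from a retrotransposon open reading frame, had 187 and 190.3 FPKM in 1343KO bodies, against 30.9 and 31.7 FPKM in WT bodies. Jarid2, a partner of Polycomb repressive complex 2, had 85.2 and 92.2 FPKM in 1343KO bodies, against 22.1 and 23.2 FPKM in WT bodies.

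**Figure D3:**
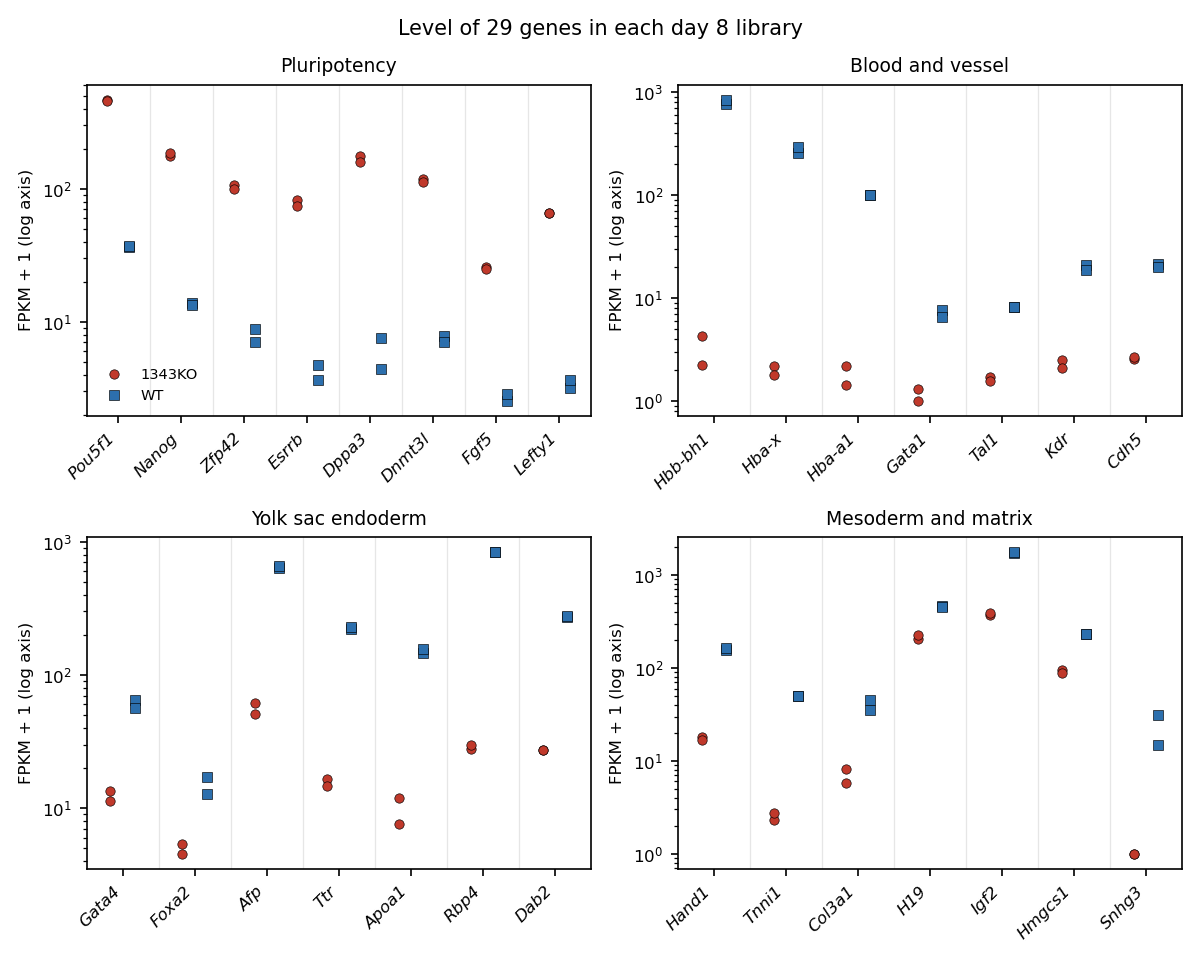
Level of 29 genes in each day 8 library, as FPKM + 1 on a log axis; red circles are the 2 libraries of 1343KO bodies and blue squares the 2 of WT bodies. In the pluripotency panel every 1343KO library lies above every WT library, and in the other 3 panels every 1343KO library lies below.

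Genes of the epiblast after implantation were also higher in 1343KO bodies. Of 20 such genes 15 were higher and 2, Cdh2 and Cdh3, were lower (median 1.91). Fgf5, the growth factor that marks this stage, had 24.8 and 24.1 FPKM in 1343KO bodies, against 1.54 and 1.85 FPKM in WT bodies, 14.4-fold higher (3.24 ± 0.22 SE, adjusted p = 5.25e-06). Otx2, a homeodomain factor of the stage and of the forebrain, had 56.7 and 58.2 FPKM in 1343KO bodies, against 11.3 and 10.2 FPKM in WT bodies (2.31 ± 0.23 SE). Pou3f1 (Oct6) had 14.2 and 15.2 FPKM in 1343KO bodies, against 1.54 and 0.892 FPKM in WT bodies. Thus genes of the naive and of the later epiblast state were above WT bodies in the same libraries, and the lines did not overlap in Fgf5, Otx2 or Pou3f1. Sox3, a partner of Pou factors in neural tissue, had 5.02 and 4.54 FPKM, against 1.35 and 1.2 FPKM in WT bodies. Cdh3 and Cdh2, the P- and N-cadherins, had log2 differences of -0.56 and -0.82. The Cdh2 difference did not pass without the second library of either line.

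The enzymes that set DNA methylation followed. Of 13 genes 11 were higher and 1 lower (median 0.67), and after TPM scaling 8 were higher and 1 lower. Dnmt3l, the stimulating cofactor of the de novo methyltransferases, had 117 and 111 FPKM in 1343KO bodies, against 6.79 and 6.07 FPKM in WT bodies (17.7-fold higher, 3.95 ± 0.15 SE, adjusted p = 1.79e-07). It also stands in the list of the epiblast after implantation. Dnmt3b, a de novo methyltransferase of the epiblast, had 88.8 and 87.3 FPKM in 1343KO bodies, against 19.6 and 19.4 FPKM in WT bodies (2.12 ± 0.07 SE). Differences for the maintenance enzyme Dnmt1 (0.33) and for Dnmt3a (0.42) were small and did not pass after TPM scaling. The call of Dnmt1 was also lost without the second 1343KO library, and that of Dnmt3a without the first WT library. The demethylating oxygenases split. Tet1, the main one of stem cells, had 38 and 40.7 FPKM in 1343KO bodies, against 6.83 and 10.1 FPKM in WT bodies (2.11 ± 0.16 SE). Tet3, which acts in the zygote and in neural tissue, had 2.53 and 2.52 FPKM in 1343KO bodies, against 9.12 and 9.14 FPKM in WT bodies (-1.52 ± 0.14 SE). Tet2 had 8.34 and 9.92 FPKM, against 6.92 and 6.8 FPKM in WT bodies, a difference of 0.36 that did not pass under either other scaling, nor without the second 1343KO library or either WT library.

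Signalling genes of the primitive streak divided, also within the Nodal pathway. Nodal, a TGF-beta family ligand that patterns the epiblast, had 29.8 and 22.7 FPKM in 1343KO bodies, against 3.43 and 2.1 FPKM in WT bodies (9.49-fold higher, 2.87 ± 0.19 SE, adjusted p = 3.81e-06). Its coreceptor Tdgf1 (Cripto) had 174 and 184 FPKM in 1343KO bodies, against 12.8 and 13.2 FPKM in WT bodies. Its inhibitor Lefty1, also a target of the pathway, had 64.9 and 65.1 FPKM in 1343KO bodies, against 2.2 and 2.63 FPKM in WT bodies (26.9-fold higher, 4.27 ± 0.15 SE). Ligand, coreceptor and feedback inhibitor were thus all high in both 1343KO libraries. Lefty2 had 41.9 and 40.6 FPKM, against 2.42 and 3.05 FPKM in WT bodies, and Cer1, an antagonist secreted by the organiser and anterior endoderm, 4.42 and 4.75 FPKM, against 0.526 and 0.105 FPKM. Pcsk6, a convertase that activates Nodal, had 11.5 and 14.6 FPKM, against 1.93 and 2.16 FPKM in WT bodies, and Foxh1, the DNA-binding partner of Smad2, 34 and 39.3 FPKM, against 20 and 19.9 FPKM. Cfc1 (Cryptic), the coreceptor used in left-right patterning, was lower, with 2.53 and 2.37 FPKM in 1343KO bodies, against 20.7 and 25.3 FPKM in WT bodies (-2.79 ± 0.34 SE). Over the 19 tested genes of the pathway, 9 were higher and 5 lower (median 0.12), and the receptors and Smads were among those that were lower or did not pass.

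Of 15 tested streak genes 8 were higher and 3 lower (median 0.58). Of the 8, Nodal, Lefty1, Lefty2, Foxh1 and Cer1 also stand in the Nodal list. T (Brachyury), the T-box factor of the streak, had 4.67 and 5.94 FPKM in 1343KO bodies, against 1.002 and 1.35 FPKM in WT bodies (1.53 ± 0.20 SE, adjusted p = 2.59e-04). Eomes, the T-box factor of mesendoderm, had 6.28 and 4.28 FPKM in 1343KO bodies, against 1.91 and 3.2 FPKM in WT bodies, and Gsc of the organiser 2.42 and 2.01 FPKM, against 1.05 and 1.25 FPKM in WT bodies. Neither call held without the first library of either line, and that of Gsc was lost after TPM scaling. Wnt3, the Wnt ligand that starts the streak, had 0.555 and 0.776 FPKM in 1343KO bodies, against 3.6 and 3.2 FPKM in WT bodies (-1.4 ± 0.19 SE). Cdx2, a caudal factor that controls Hox genes and trophoblast, had 1.81 and 1.6 FPKM in 1343KO bodies, against 12.8 and 16.2 FPKM in WT bodies (8.53-fold lower in 1343KO bodies, -2.51 ± 0.28 SE). Evx1, a posterior streak factor, was -1.02 on the log2 scale and did not pass without the first library of either line. Fgf8, an FGF of the streak, had 7.57 and 5.98 FPKM, against 5.1 and 7.43 FPKM in WT bodies, with overlapping libraries. Mixl1 did not reach the level needed for testing.

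Genes of bone morphogenetic protein (BMP) signalling, which drives mesoderm and blood formation and acts through Smad1 on the Id genes, were lower. Of 20 tested genes 15 were lower and 2 higher (median -1.68). Bmp4, the ligand that induces mesoderm, had 10.4 and 8.52 FPKM in 1343KO bodies, against 54.4 and 57.3 FPKM in WT bodies (5.9-fold lower, -2.45 ± 0.19 SE, adjusted p = 1.01e-05). Bmp2 had 2.4 and 1.81 FPKM, against 13.1 and 12.2 FPKM in WT bodies, and Bmp5 had 1.49 and 0.89 FPKM, against 22.4 and 23.1 FPKM. The receptors Bmpr1a (-0.86) and Bmpr2 (-1.17) were lower by less. The target genes Id1, Id2 and Id3, inhibitors of basic helix-loop-helix factors, were all lower. Id1 had 26.8 and 23.7 FPKM in 1343KO bodies, against 111 and 103 FPKM in WT bodies. Id2 had 24.9 and 26.9 FPKM in 1343KO bodies, against 122 and 120.02 FPKM in WT bodies. Id3 had 23.3 and 26.6 FPKM in 1343KO bodies, against 76.8 and 82.9 FPKM in WT bodies. In all 3 both 1343KO libraries lay below both WT libraries. The inhibitory Smad6, another target, had 6.25 and 5.46 FPKM in 1343KO bodies, against 28.1 and 25.5 FPKM in WT bodies. The antagonist Nog (noggin) was also lower (-2.11). The exceptions were Id4, with 3.77 and 3.92 FPKM, against 1.16 and 1.27 FPKM in WT bodies, and Bmp8b, whose call at a low level did not hold without the first library of either line.

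Globins that were high in WT bodies were at a few FPKM or less in 1343KO bodies. Of 18 tested globin and red cell genes 13 were lower and 1, Tfrc, was higher (median -1.92). Without either 1 of the WT libraries of day 8, 3 no longer met the level filter, and 9 of the 15 left were lower (median -1.20 or -1.21). The 3 largest falls by the rule for named genes included Hbb-bh1 and Hba-x, the beta-like and alpha-like globins of the first red cells of the yolk sac. The adult-type alpha globins Hba-a1 and Hba-a2 came next after Ece1.

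Promoters of the alpha-globin locus are shown because the embryonic and the adult-type gene fell together. Capitals mark TGATAA, a form of the site of Gata1, the master factor of red cells, searched on both strands in the 250 bases before the RefSeq start (GRCm38.p6, plus strand).
Hba-x (chr11:32276350-32276599): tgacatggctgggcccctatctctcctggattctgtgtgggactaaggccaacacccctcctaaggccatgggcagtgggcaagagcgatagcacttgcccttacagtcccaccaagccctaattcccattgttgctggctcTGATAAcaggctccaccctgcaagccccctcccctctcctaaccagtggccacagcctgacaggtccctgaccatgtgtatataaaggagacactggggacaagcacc
Hba-a1 (chr11:32283422-32283671): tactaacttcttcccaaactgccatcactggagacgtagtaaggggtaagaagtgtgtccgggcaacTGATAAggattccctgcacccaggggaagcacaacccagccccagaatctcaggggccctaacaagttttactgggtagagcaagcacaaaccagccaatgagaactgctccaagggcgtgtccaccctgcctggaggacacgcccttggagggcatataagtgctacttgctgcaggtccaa
Each holds 1 match, as do 7.94% of the 32851 promoter windows. The windows of Hba-a1 and Hba-a2 are identical over the 247 bases they share after a shift of 3, and the genes are near-identical copies, so reads may have been split between them.

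Hbb-bh1 (chr7:103841637-103843164) had 3.25 and 1.22 FPKM in 1343KO bodies, against 759.6 and 844 FPKM in WT bodies. The WT level was 359-fold the 1343KO level, a log2 difference of -8.03 ± 0.41 SE (adjusted p = 1.04e-06), the largest fall of all. Hba-x had 1.18 and 0.774 FPKM in 1343KO bodies, against 257 and 290.1 FPKM in WT bodies (-7.12 ± 0.36 SE, adjusted p = 8.32e-07). Hba-a1 had 0.432 and 1.21 FPKM in 1343KO bodies, against 99.2 and 99 FPKM in WT bodies and Hba-a2 0.652 and 1.1 FPKM, against 77.2 and 88.5 FPKM. In these 4 genes both 1343KO libraries were at a few FPKM or less, while both WT libraries were far above. Hbb-y, the other embryonic beta-like globin, had 0.341 and 0 FPKM in 1343KO bodies, against 14 and 18.6 FPKM in WT bodies. Alas2, the red cell enzyme that starts haem synthesis, was listed at 0 in both 1343KO libraries, against 9.48 and 8.55 FPKM in WT bodies. Tfrc, the transferrin receptor that all dividing cells use for iron, rose instead, with 119 and 123 FPKM in 1343KO bodies, against 42.1 and 43 FPKM in WT bodies (1.49 ± 0.08 SE).

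The transcription factors of blood were lower as well. Of 17 tested factors and receptors 12 were lower and 2, Myb and Kit, higher (median -1.60). Without the second WT library 14 were tested, of which 7 were lower and 2 higher (median -1.09), and without the first 14 were tested and 9 were lower. Gata1 had 0.295 and 0 FPKM in 1343KO bodies, against 6.68 and 5.56 FPKM in WT bodies (-2.64 ± 0.22 SE, adjusted p = 1.82e-05). Tal1, which starts both blood and vessel programmes, had 0.727 and 0.551 FPKM in 1343KO bodies, against 7.14 and 7.2 FPKM in WT bodies (11.2-fold lower, -2.32 ± 0.20 SE). Klf1, the activator of adult beta-globin, had 0.287 and 0.318 FPKM in 1343KO bodies, against 5.35 and 7.003 FPKM in WT bodies. Lmo2, the bridging partner of Tal1 and Gata1, had 2.79 and 0.735 FPKM, against 19.3 and 20.2 FPKM in WT bodies, and Nfe2, a globin locus factor, 0.18 and 0 FPKM, against 5.73 and 7.95 FPKM. Runx1, needed for definitive blood, was low in both lines, with 1.21 and 2.1 FPKM, against 2.79 and 3.81 FPKM in WT bodies, and its call did not hold without the first 1343KO or the second WT library. Myb, a factor of definitive blood progenitors and other dividing cells, was 5.85-fold higher, with 8.11 and 10.1 FPKM, against 1.19 and 1.91 FPKM in WT bodies. The receptor Kit, also a germ cell and stem cell gene, had 20.3 and 17.2 FPKM, against 12.6 and 11.7 FPKM in WT bodies, a call lost without the first 1343KO library.

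Endothelial genes followed the blood genes. Of 21 genes 15 were lower and 1, Pecam1, higher (median -1.81). Kdr (VEGF receptor 2), which marks the common precursor of blood and vessels, had 1.49 and 1.12 FPKM in 1343KO bodies, against 20.2 and 17.9 FPKM in WT bodies (14.6-fold lower, -3.12 ± 0.21 SE, adjusted p = 5.35e-06). Cdh5 (VE-cadherin) had 1.54 and 1.7 FPKM in 1343KO bodies, against 20.2 and 18.9 FPKM in WT bodies (-2.97 ± 0.17 SE). Tie1, an endothelial receptor kinase, had 0.231 and 0.23 FPKM in 1343KO bodies, against 8.99 and 10 FPKM in WT bodies, and Tek, the angiopoietin receptor, had 2.02 and 1.58 FPKM, against 15.2 and 13.7 FPKM in WT bodies. Flt1 (VEGF receptor 1) differed less (-0.95). Pecam1, an adhesion protein of endothelium that stem cells also carry, had 24.6 and 28.5 FPKM in 1343KO bodies, against 15.3 and 14.4 FPKM in WT bodies (0.8 ± 0.11 SE). Nrp1, a coreceptor for VEGF and semaphorins, was among the 15 largest falls, with 1.87 and 1.63 FPKM in 1343KO bodies, against 84.3 and 80.3 FPKM in WT bodies (-4.92 ± 0.13 SE). Ece1, the endothelin-converting enzyme, was there too with 8.92 and 6.99 FPKM in 1343KO bodies, against 1031 and 382 FPKM in WT bodies. Its WT libraries differed widely, its standard error was 1.57 on the log2 scale, and it had 219 and 7.86 FPKM in 1343KO cells at day 0, so its level was erratic, and the call was lost without the first WT or the second 1343KO library.

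Factors of mesoderm were lower in 1343KO bodies. Of 20 tested factors 13 were lower and 1, Tcf15, higher (median -1.60). Hand1, a basic helix-loop-helix factor of extraembryonic mesoderm and heart, had 16.9 and 15.6 FPKM in 1343KO bodies, against 154 and 162 FPKM in WT bodies (9.72-fold lower, -3.21 ± 0.17 SE, adjusted p = 1.11e-06). Snai2 (Slug), a repressor that frees cells from epithelium, had 1.71 and 1.59 FPKM in 1343KO bodies, against 42 and 42.5 FPKM in WT bodies (25.6-fold lower, -4.03 ± 0.25 SE). Hand2 had 0.922 and 0.477 FPKM in 1343KO bodies, against 21.2 and 21.6 FPKM in WT bodies, and Tbx20 of the heart field had 1.31 and 1.44 FPKM, against 20.8 and 19.8 FPKM in WT bodies. Twist1 differed by -1.12 on the log2 scale. Tcf15, which primes stem cells to differentiate and later marks somites, had 12 and 13.7 FPKM in 1343KO bodies, against 3.6 and 4.24 FPKM in WT bodies (1.5 ± 0.12 SE).

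Of 20 tested contractile genes of heart muscle 8 were lower, 2 were higher and 10 did not pass (median -0.64). The share that passed in either direction was not far above the 42.8% over all genes. Tnni1, the slow troponin I that the embryonic heart uses, had 1.31 and 1.72 FPKM in 1343KO bodies, against 48.4 and 49.5 FPKM in WT bodies (32.3-fold lower, -4.32 ± 0.31 SE). Tnnt2 (cardiac troponin T) had 1.42 and 2.09 FPKM in 1343KO bodies, against 12.4 and 13.2 FPKM in WT bodies, and Actc1 (cardiac actin) had 1.5 and 1.17 FPKM, against 7.88 and 9.02 FPKM in WT bodies. Myl7 of the atrium had 2.32 and 1.3 FPKM, against 8.23 and 7.75 FPKM and Myh7 3.36 and 1.24 FPKM, against 5.05 and 6.55 FPKM in WT bodies, and neither call held without the second 1343KO library. The 2 higher genes were Myl2 and Actn2. Myl2 had 1.26 and 2.12 FPKM in 1343KO bodies and was listed at 0 in WT bodies, and Actn2 had 1.09 and 1.3 FPKM, against 0.12 and 0.0575 FPKM in WT bodies. Hopx, a small homeodomain protein of heart progenitors and other tissues, was among the 15 largest falls, with 4.41 and 0.479 FPKM in 1343KO bodies, against 60.5 and 59.6 FPKM in WT bodies.

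Hox genes, which give position along the body axis, were close to silent in 1343KO bodies. Of 25 tested 18 were lower and none was higher, while 7 did not pass (median -1.42). Summed over the list the level was 8.3 and 8.8 FPKM in 1343KO bodies, against 89.2 and 90.1 FPKM in WT bodies. With such a sum, most of the 25 were under 1 FPKM in 1343KO bodies and met the level filter through other libraries. The lack of higher genes may therefore be set in part by the filter. Hoxc8 had 0.246 and 0.249 FPKM in 1343KO bodies, against 11.3 and 13.4 FPKM in WT bodies (-3.41 ± 0.21 SE, adjusted p = 3.02e-06). Hoxb2 had 0.177 and 0.147 FPKM, against 9.4 and 9.09 FPKM in WT bodies, and Hoxb4 had 0.365 and 0.691 FPKM, against 7.24 and 8.59 FPKM. Members of all 4 clusters were among the lower genes, and anterior and posterior members alike.

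Most tested genes of extraembryonic endoderm were lower, among its factors, plasma proteins and endocytic or basement membrane genes alike. Of 12 factors 9 were lower and none was higher (median -1.57). Gata4, a zinc-finger factor that specifies this layer, had 10.3 and 12.4 FPKM in 1343KO bodies, against 64.3 and 55.1 FPKM in WT bodies (5.25-fold lower, -2.3 ± 0.18 SE, adjusted p = 1.22e-05). Gata6 had 2.18 and 3.34 FPKM in 1343KO bodies, against 21.5 and 17 FPKM in WT bodies, and Hnf4a, the nuclear receptor that drives plasma protein genes, had 2.44 and 2.46 FPKM, against 18.4 and 18.1 FPKM in WT bodies. Foxa2, a forkhead factor of endoderm, had 4.34 and 3.54 FPKM, against 16 and 11.8 FPKM in WT bodies, and Sox7 had 1.15 and 1.05 FPKM, against 4.45 and 5.48 FPKM. Sox17 had 7.93 and 7.68 FPKM, against 17.6 and 17.2 FPKM in WT bodies without overlap, but did not pass in the model of all 12 libraries (adjusted p = 0.0891). It passed with the 4 day 8 libraries alone. Hhex had 7.46 and 6.6 FPKM, against 8.58 and 7.97 FPKM in WT bodies and did not pass.

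Plasma protein genes of the yolk sac endoderm showed the lowest median of all lists, -3.08 on the log2 scale. Of 20 tested 17 were lower and 1, Ttpa, higher. Afp (alpha-fetoprotein) had 60.6 and 50.2 FPKM in 1343KO bodies, against 631 and 659 FPKM in WT bodies (11.6-fold lower, -3.52 ± 0.21 SE, adjusted p = 2.45e-06). Ttr (transthyretin), the thyroid hormone carrier, had 15.5 and 13.6 FPKM in 1343KO bodies, against 219.7 and 228 FPKM in WT bodies. Rbp4, the retinol carrier, had 26.6 and 28.7 FPKM in 1343KO bodies, against 831 and 833 FPKM in WT bodies (30.1-fold lower, -4.86 ± 0.16 SE). In all 3 carriers both 1343KO libraries lay far below both WT libraries. The apolipoproteins Apoa1, Apob and Apom had log2 differences of -3.99, -4.17 and -5.03, and Apom, of high-density lipoprotein, had 4.42 and 3.82 FPKM, against 149 and 185 FPKM in WT bodies. Trf (transferrin) had 11 and 11.3 FPKM, against 82.1 and 107 FPKM in WT bodies. Ttpa, a carrier of vitamin E, had 5.41 and 6.81 FPKM, against 0.39 and 0.824 FPKM in WT bodies, 10.1-fold higher.

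Of 17 endocytic receptors and basement membrane genes of endoderm 14 were lower and none was higher (median -1.68). Dab2, the adaptor that takes up cargo in visceral endoderm, had 26.5 and 26.2 FPKM in 1343KO bodies, against 271 and 275 FPKM in WT bodies (10.4-fold lower, -3.32 ± 0.12 SE). Cubn (cubilin), the vitamin B12 receptor, had 4.89 and 5.31 FPKM in 1343KO bodies, against 35 and 37.4 FPKM in WT bodies. Col4a1, a type IV collagen chain of basement membranes, had 53.9 and 52.3 FPKM in 1343KO bodies, against 189.8 and 188 FPKM in WT bodies. Lrp2 (megalin) had a small difference (-0.47) whose call was lost without the first 1343KO or the second WT library, and Lama1 had 9.83 and 9.82 FPKM, against 12.3 and 11.6 FPKM in WT bodies, which passed only after rescaling. Further genes of the 15 largest falls are transporters or enzymes of such epithelia. Slc13a4, a sulphate transporter of yolk sac and placenta, had 0.909 and 1.5 FPKM in 1343KO bodies, against 58.9 and 57.1 FPKM in WT bodies, and Hsd11b2, which inactivates glucocorticoids, 4.21 and 2.03 FPKM, against 78.5 and 80.2 FPKM in WT bodies.

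Mesenchyme and its matrix were lower. Of 26 matrix genes 21 were lower and 2, Thy1 and Thbs1, higher (median -1.72). Col1a1 and Col1a2, the chains of type I collagen, differed between the lines. Col1a1 had 7.24 and 7.05 FPKM in 1343KO bodies, against 47.3 and 48.5 FPKM in WT bodies. Col1a2 had 12.9 and 12.9 FPKM in 1343KO bodies, against 74.4 and 83.8 FPKM in WT bodies. Col3a1 had 7.15 and 4.71 FPKM in 1343KO bodies, against 34.6 and 44.1 FPKM in WT bodies (-2.55 ± 0.24 SE). Postn (periostin), a matrix protein of heart and periosteum, had 4.69 and 3.73 FPKM, against 29.3 and 29 FPKM in WT bodies. Fn1 (fibronectin), which is abundant in both, had 109 and 116 FPKM, against 266 and 288 FPKM in WT bodies, and Dcn (decorin) was low in both at 2.34 and 1.61 FPKM, against 6.76 and 7.15 FPKM in WT bodies, a call lost without the second 1343KO library. Thbs1 (thrombospondin) had 19 and 18.5 FPKM, against 9.76 and 8.99 FPKM in WT bodies, 1.996-fold higher. Smoc2, a secreted calcium-binding matrix protein, was among the 15 largest falls with 1.1 and 2.3 FPKM in 1343KO bodies, against 54.4 and 53.1 FPKM in WT bodies.

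The epithelial to mesenchymal genes gave a like picture. Of 14 genes 10 were lower and 1 higher (median -1.42). Vim (vimentin), the intermediate filament of mesenchyme, had 33.5 and 34.8 FPKM in 1343KO bodies, against 200.1 and 184 FPKM in WT bodies (5.63-fold lower, -2.46 ± 0.15 SE), and Zeb1, a repressor of E-cadherin, 2.07 and 1.996 FPKM, against 8.99 and 9.03 FPKM in WT bodies. Epithelial genes did not move as a block. Of 22 genes 10 were higher and 6 lower (median 0.30), and after TPM scaling 9 were higher and 8 lower. Epcam, an adhesion protein of stem cells and epithelia, had 139.5 and 136 FPKM in 1343KO bodies, against 49.3 and 52 FPKM in WT bodies (1.43 ± 0.08 SE), and Cldn4, a tight junction claudin, 89.1 and 80.5 FPKM, against 17 and 19.5 FPKM in WT bodies. Cldn7 went the other way, with 44.6 and 33.4 FPKM, against 99.7 and 102 FPKM in WT bodies. Cdh1 (E-cadherin) was 0.32 on the log2 scale, which did not pass after TPM scaling. The simple keratins Krt8 and Krt18, high in both lines, had log2 differences of -0.64 and -0.69. Of 15 smooth muscle genes 5 were lower and none was higher, a share of 33.3% that is below the 42.8% over all genes, and 3 were lower without the second library of either line. Acta2 (smooth muscle actin) had 39.7 and 38.4 FPKM in 1343KO bodies, against 138 and 149.7 FPKM in WT bodies, while Tagln had 46.5 and 43.3 FPKM, against 33.2 and 39.2 FPKM in WT bodies and did not pass.

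Macrophage markers were low in both lines. Of 18 tested markers 2 were higher and 3 lower, 27.8% in all, below the 42.8% over all genes. Most were tested through the WT bodies of day 16, since 6 met the level filter without either 1 of those libraries and 4 in the day 8 libraries alone. Their summed level was 16.8 and 13.9 FPKM in 1343KO bodies, against 30.3 and 32.0 FPKM in WT bodies. The complement genes C1qa, C1qb and C1qc were under 1 FPKM in every day 8 library. Mrc1, a mannose receptor that lymphatic and sinus endothelium also has, had 0.268 and 0.221 FPKM in 1343KO bodies, against 7.3 and 7.52 FPKM in WT bodies, and Csf1r, the macrophage growth factor receptor, 1.26 and 1.32 FPKM, against 2.9 and 3.59 FPKM in WT bodies. Cd68 had 10.4 and 6.08 FPKM, against 14.8 and 13.7 FPKM in WT bodies, and its call was lost with the 4 day 8 libraries alone and without the second 1343KO library or either WT library.

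**Figure D4:**
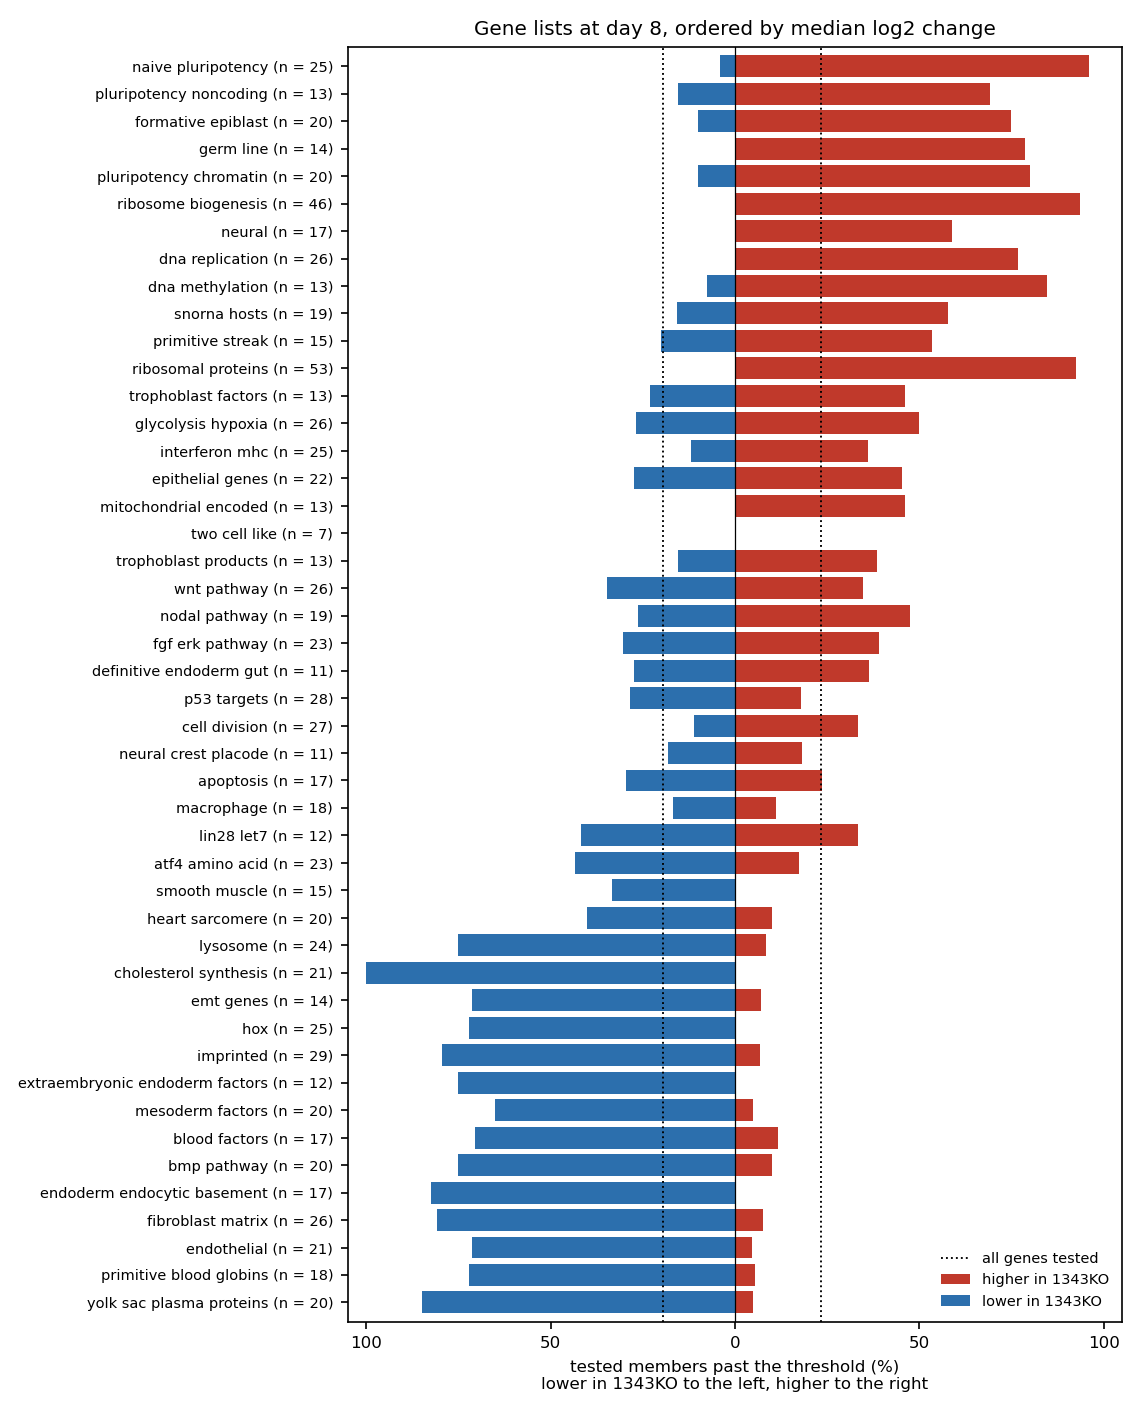
Share of the tested members of 46 gene lists that passed at day 8, as percent: red bars to the right are higher in 1343KO and blue bars to the left lower, with the number tested in brackets and the lists ordered by median log2 difference. Dotted lines mark the shares over all genes tested, 23.3% higher and 19.6% lower. Naive pluripotency stands at the top and yolk sac plasma proteins at the bottom.

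Imprinted genes, which are expressed from 1 parental copy and rise as embryonic tissues grow, were lower in 1343KO bodies. Of 29 tested 23 were lower and 2, Snrpn and Ascl2, higher (median -1.56). Their summed level was 1786 and 1789 FPKM in 1343KO bodies, against 6200.5 and 6279 FPKM in WT bodies. Igf2, the fetal growth factor, had 369 and 393 FPKM in 1343KO bodies, against 1728 and 1759 FPKM in WT bodies (4.58-fold lower, -2.19 ± 0.11 SE, adjusted p = 8.32e-07). Its scavenger receptor Igf2r had 15.4 and 15 FPKM in 1343KO bodies, against 77.4 and 84.7 FPKM in WT bodies, and H19, the noncoding RNA beside Igf2, 206 and 227 FPKM, against 460 and 449 FPKM in WT bodies. So the ligand and the receptor that removes it were lower in the same libraries. Meg3 and Dlk1, a noncoding RNA and a Notch-like protein of 1 locus with opposite parental copies, differed between the lines. Meg3 had 93.2 and 89.1 FPKM in 1343KO bodies, against 562 and 614 FPKM in WT bodies. Dlk1 had 23.6 and 13.7 FPKM in 1343KO bodies, against 304 and 324 FPKM in WT bodies. Peg3, a zinc-finger gene of the paternal copy, had 39.6 and 43.7 FPKM, against 208 and 199.98 FPKM in WT bodies, and Cdkn1c (p57), a cell cycle inhibitor of the maternal copy, 64.8 and 61.7 FPKM, against 130.4 and 134 FPKM. Nnat (neuronatin) was among the 15 largest falls, with 2.87 and 2.04 FPKM in 1343KO bodies, against 123 and 126 FPKM in WT bodies (50.6-fold lower, -5.19 ± 0.21 SE). Snrpn, a splicing protein, had 62.3 and 54.5 FPKM, against 27 and 24.6 FPKM in WT bodies, and Ascl2, a trophoblast factor, 2.35 and 5.26 FPKM, against 0.775 and 0.347 FPKM, which did not pass without the second library of either line.

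The machinery of growth was higher. Of 46 ribosome assembly factors 43 were higher, none was lower and 3 did not pass (median 0.96), and after TPM scaling 36 were higher and none lower. Ncl (nucleolin) had 459.8 and 455 FPKM in 1343KO bodies, against 212 and 226 FPKM in WT bodies (1.06 ± 0.05 SE, adjusted p = 3.95e-07). Fbl (fibrillarin), the methyltransferase of box C/D RNAs, had 198 and 156 FPKM in 1343KO bodies, against 85.3 and 88.2 FPKM in WT bodies. Dkc1 (dyskerin), the pseudouridine synthase that box H/ACA RNAs guide, had 96.3 and 87 FPKM in 1343KO bodies, against 33.2 and 35.9 FPKM in WT bodies (1.38 ± 0.08 SE). In both the lines did not overlap. Npm1 (nucleophosmin) had 1638 and 1661 FPKM, against 919 and 938 FPKM in WT bodies, Nop56 had 218 and 201 FPKM, against 99.9 and 114 FPKM, and Rrp9, a U3 component, had 52.3 and 39.2 FPKM, against 11.2 and 9.16 FPKM. Of 53 ribosomal protein genes 49 were higher and none lower, with a small median of 0.47 that was 0.27 after TPM scaling, when 37 were higher. Rpl22 had 1599 and 1512 FPKM, against 855 and 975 FPKM in WT bodies, and Rpl10a 1122 and 1135 FPKM, against 733 and 743 FPKM. Ribosomal protein pseudogenes can share reads with these genes. Of 1303 tested processed pseudogenes of any parent gene, 237 were higher and 25 lower. Both shares are below the 23.3% higher and 19.6% lower over all genes tested. Of 19 noncoding hosts of small nucleolar RNAs 11 were higher and 3, among them Snhg3, lower, but TPM scaling left 6 higher and 3 lower, and 7 were higher without the first 1343KO library or without either WT library.

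DNA replication genes were higher, while those of mitosis went both ways. Of 26 tested replication genes 20 were higher and none lower (median 0.72), and after TPM scaling 17 were higher and 1 lower. Mcm2 and Mcm7, parts of the helicase, differed between the lines. Mcm2 had 71.2 and 62.8 FPKM in 1343KO bodies, against 30.9 and 34.5 FPKM in WT bodies. Mcm7 had 126 and 129.5 FPKM in 1343KO bodies, against 49.6 and 56.5 FPKM in WT bodies. Pcna, the polymerase clamp, had 159.5 and 164 FPKM, against 101 and 99.9 FPKM in WT bodies, and Ung, which removes uracil from DNA, 71.9 and 66.2 FPKM, against 17.3 and 16.2 FPKM (1.98 ± 0.09 SE). Of 27 mitosis genes 9 were higher and 3 lower, a share close to the 42.8% of all genes, and the median was 0.06. After TPM scaling 3 were higher and 5 lower, and without either 1343KO library or the first WT library 5 were higher and 3 lower. Plk1, the polo-like kinase, had 56 and 58.5 FPKM, against 51.3 and 53.4 FPKM in WT bodies and did not pass, with a sign that turned after TPM scaling. Bub1, a spindle checkpoint kinase, was higher (0.56) and Mki67, a chromosome surface protein of dividing cells, lower (-0.85).

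Every tested gene of cholesterol and fatty acid synthesis was lower in 1343KO bodies. All 21 passed as lower as deposited and after TPM scaling (median -1.20), and 20 did so with the 4 day 8 libraries alone. Hmgcs1, the synthase that makes HMG-CoA, has a promoter in which the factor SREBP2 and its helper NF-Y are known to bind, and it is shown for that reason. Capitals in the 250 bases before the RefSeq start (GRCm38.p6, chr13:119690101-119690350, plus strand) mark TCACCCCAC, a sterol element, and ATTGG, the NF-Y box, both searched on both strands without overlap between them.
Hmgcs1 promoter: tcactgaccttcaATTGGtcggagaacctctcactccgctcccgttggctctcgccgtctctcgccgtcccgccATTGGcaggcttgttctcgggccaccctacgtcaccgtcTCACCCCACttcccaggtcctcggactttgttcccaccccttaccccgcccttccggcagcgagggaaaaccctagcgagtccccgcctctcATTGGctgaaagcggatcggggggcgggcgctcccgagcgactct
The window holds 1 match to TCACCCCAC, found in 0.496% of the 32851 promoter windows, and 3 to ATTGG, found in 33.8%.

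Hmgcs1 had 94.4 and 86.8 FPKM in 1343KO bodies, against 232 and 230.2 FPKM in WT bodies (2.55-fold lower, -1.34 ± 0.08 SE, adjusted p = 1.66e-06). Sqle, the squalene epoxidase, had 37.5 and 36.9 FPKM in 1343KO bodies, against 57.8 and 59 FPKM in WT bodies (-0.64 ± 0.11 SE). No 1343KO library reached a WT library in either gene. Cyp51, the sterol demethylase, had 16.5 and 16.8 FPKM, against 53.3 and 56.5 FPKM in WT bodies, and Srebf2, which encodes SREBP2, had 52.1 and 43.4 FPKM, against 93.6 and 87.5 FPKM. The largest falls were in Scd1, the desaturase of fatty acids, with 10.4 and 8.51 FPKM in 1343KO bodies, against 79.8 and 78.1 FPKM in WT bodies (-2.94 ± 0.12 SE), and Stard4, a cholesterol carrier, with 10 and 10 FPKM, against 57 and 58.2 FPKM in WT bodies.

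Lysosomal genes were lower, 18 of 24, with 2 higher (median -0.74). Lipa, the acid lipase that frees cholesterol from esters, had 5.68 and 4.48 FPKM in 1343KO bodies, against 49.1 and 47.6 FPKM in WT bodies (9.52-fold lower, -3.03 ± 0.19 SE). The cathepsins Ctsl and Ctsd, proteases, differed between the lines. Ctsl had 133 and 126 FPKM in 1343KO bodies, against 398 and 379.9 FPKM in WT bodies. Ctsd had 98.7 and 98.4 FPKM in 1343KO bodies, against 146 and 142 FPKM in WT bodies. Genes of glycolysis and low oxygen went both ways. Of 26 tested gene models for 25 listed genes 13 were higher and 7 lower. The higher genes included Hk1 (hexokinase), with 19.6 and 21.2 FPKM, against 5.36 and 7.18 FPKM in WT bodies, Pkm (pyruvate kinase), with 1175 and 1108 FPKM, against 489.96 and 527 FPKM, Eno1 (enolase), with 892 and 796 FPKM, against 402 and 409.7 FPKM, and Pgk1, with a log2 difference of 0.41. Pdk1, the kinase that keeps pyruvate out of mitochondria, had 103 and 82.8 FPKM, against 29.5 and 34.7 FPKM in WT bodies. The glucose transporters Slc2a1 and Slc2a3 were lower. Slc2a1 had 241 and 223 FPKM in 1343KO bodies, against 433 and 461 FPKM in WT bodies. Slc2a3 had 372 and 381 FPKM in 1343KO bodies, against 754 and 748 FPKM in WT bodies. So were Vegfa, the vessel growth factor (-1.24), and P4ha1, a collagen hydroxylase (-1.17). Ldha, lactate dehydrogenase, overlapped, with 779.8 and 718 FPKM, against 756 and 772 FPKM in WT bodies, and passed as lower only after TPM scaling.

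Of 23 ATF4 and amino acid genes 4 were higher and 10 lower (median -0.32). Tdh, the threonine dehydrogenase on which mouse stem cells depend, had 102 and 102 FPKM in 1343KO bodies, against 17.5 and 16.8 FPKM in WT bodies (5.97-fold higher, 2.51 ± 0.14 SE). The serine synthesis enzymes Phgdh and Psat1 were lower, with log2 differences of -1.01 and -0.97. Of 28 targets of p53, 5 were higher and 8 lower, close to the share over all genes. Gadd45a, a growth arrest gene, had 34.6 and 32.4 FPKM, against 9.62 and 10.8 FPKM in WT bodies, and Bax, a mediator of cell death, 148 and 149 FPKM, against 71.3 and 69.1 FPKM. Cdkn1a (p21) was lower, with 48.7 and 45.6 FPKM, against 67.1 and 71.5 FPKM in WT bodies, as was Ccng1 (cyclin G1, -0.48). Mdm2, the p53 ligase, had 61.6 and 57.6 FPKM, against 56.4 and 53.2 FPKM in WT bodies and did not pass, with a sign that turned after TPM scaling. Let-7 targets did not move together, with 4 of 12 higher and 5 lower. Hmga2, a chromatin protein of growing embryonic tissue, had 18.2 and 14.8 FPKM in 1343KO bodies, against 122 and 113 FPKM in WT bodies (7.13-fold lower, -2.77 ± 0.10 SE), and Lin28a, the RNA-binding protein that blocks let-7, 118 and 119.6 FPKM, against 177 and 177 FPKM in WT bodies (-0.57 ± 0.06 SE).

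Germ line and neural genes were higher. Of 14 tested germ line genes 11 were higher and none was lower (median 1.88), and Dppa3 among them also stands in the naive list. Besides Dppa3 they included Tfap2c, a factor of germ cells and trophoblast, with 41.3 and 38.2 FPKM in 1343KO bodies, against 3.98 and 3.63 FPKM in WT bodies (3.09 ± 0.15 SE). Dazl, an RNA-binding protein of germ cells, had 6.03 and 4.97 FPKM, against 0.744 and 0.419 FPKM in WT bodies, and Ddx4 (Vasa) 3.86 and 3.07 FPKM, against 0.762 and 0.674 FPKM. Sycp3, of the meiotic chromosome axis, had 15.5 and 10.5 FPKM, against 3.01 and 2.95 FPKM in WT bodies, and Tuba3a, a testis tubulin, 6.23 and 7.92 FPKM, against 0.209 and 0.125 FPKM. In each of these the lines did not overlap. Of 17 tested neural genes 10 were higher and none lower (median 0.77), with 5 higher without the first 1343KO library and 6 without the second 1343KO or the first WT library. Their summed level was 45.5 and 45.2 FPKM in 1343KO bodies, against 15.4 and 15.4 FPKM in WT bodies. Stmn2, a neuronal microtubule regulator, had 17.7 and 16.9 FPKM, against 2.48 and 2.98 FPKM in WT bodies. Pax6, a factor of neural progenitors, had 3.11 and 2.67 FPKM, against 1.02 and 1.002 FPKM, Nes (nestin) 5.68 and 6.01 FPKM, against 4.35 and 4.18 FPKM, and Sox1, the first neural factor, 1.36 and 0.995 FPKM, against 1.07 and 0.831 FPKM in WT bodies. The call of Pax6 was lost without the first 1343KO library, that of Nes without any 1 of the 4 day 8 libraries, and Sox1 did not pass.

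Trophoblast factors split, 6 of 13 higher and 3 lower, 69.2% in all against 42.8% over all genes, with log2 differences from -3.21 to 3.78. Their summed level was 276 and 253 FPKM in 1343KO bodies, against 331 and 344 FPKM in WT bodies. Of 13 tested trophoblast products 5 were higher and 2 lower, 53.8% in all. Those summed to 424 and 410 FPKM in 1343KO bodies, against 573 and 561 FPKM in WT bodies. The called genes named next are rises only. The X-linked homeobox genes Rhox6 and Rhox9, of placenta and germ cells, differed between the lines. Rhox6 had 83.8 and 68 FPKM in 1343KO bodies, against 5.17 and 4.06 FPKM in WT bodies. Rhox9 had 67.8 and 56.2 FPKM in 1343KO bodies, against 5.02 and 4.69 FPKM in WT bodies. Ctsj, a placental cathepsin, had 5.19 and 6.88 FPKM, against 0.393 and 0.312 FPKM in WT bodies, and Plac1 had 6.76 and 7.59 FPKM, against 9.85 and 8.09 FPKM and did not pass. Of 7 tested genes of the 2-cell-like state none passed, and none met the level filter in the 4 day 8 libraries alone. Zscan4f had 1.13 and 0.32 FPKM, against 0.0942 and 0.132 FPKM in WT bodies and passed at a pseudocount of 0.1 or without the second 1343KO library. Among 25 interferon and antigen presentation genes 9 were higher and 3 lower, 48.0% in all and near the 42.8% over all genes. Ifitm1 and Ifitm3, membrane proteins of germ cells and antiviral defence, differed between the lines. Ifitm1 had 475 and 433 FPKM in 1343KO bodies, against 56.3 and 62.9 FPKM in WT bodies. Ifitm3 had 238 and 212 FPKM in 1343KO bodies, against 37.9 and 41 FPKM in WT bodies. The transcription factor Irf1 had 33.6 and 37.8 FPKM, against 4.51 and 5.07 FPKM in WT bodies. B2m and H2-K1, which form class I molecules, were lower, at -1.1 and -0.82.

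The difference at day 8 was set against the difference between the lines before and after. The difference at day 8 minus the difference at day 0 passed for 4605 genes, 28.3% of those tested, of which 2534 were positive (15.6%) and 2071 negative (12.7%). For the naive list the median log2 differences between lines at days 0, 8 and 16 were 0.13, 3.65 and 3.77, and 24 of 25 genes passed the test of day 8 minus day 0 with a positive sign. Nanog had 206 and 210.04 FPKM in 1343KO cells, against 142 and 153 FPKM in WT cells at day 0, and 139 and 158 FPKM in 1343KO bodies, against 6.83 and 7.45 FPKM in WT bodies at day 16. For Dppa3, day 0 already differed, at 38.2 and 35.4 FPKM in 1343KO cells, against 11.3 and 8.62 FPKM in WT cells. Nanog and Dppa3 thus were higher in both 1343KO libraries than in both WT libraries on every day sampled.

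Lists that were low at day 8 differed in their timing. For yolk sac plasma proteins the medians at days 0, 8 and 16 were -0.03, -3.08 and -5.70, and 15 of 20 tested genes passed the test of day 8 minus day 16 with a positive sign. For the extraembryonic endoderm factors they were -1.01, -1.57 and -1.37. Gata4 was already at 3.25 and 2.04 FPKM in 1343KO cells, against 19.4 and 23.8 FPKM in WT cells at day 0. For globins and red cell genes the medians were -0.02, -1.92 and -0.18, with 13 of 18 negative in day 8 minus day 0 and 11 in day 8 minus day 16. Hba-x had 2.33 and 1.16 FPKM in 1343KO cells, against 1.02 and 1.97 FPKM in WT cells at day 0. At day 16 it had 9.51 and 8.03 FPKM in 1343KO bodies, against 2.96 and 7.5 FPKM in WT bodies. Its difference at day 8, like that of Hbb-bh1, thus stood between days without a called one. The adult-type alpha globins were still lower in 1343KO bodies at day 16, with log2 differences of -3.47 for Hba-a1 and -3.53 for Hba-a2. Cholesterol genes had medians of -0.30, -1.20 and -0.80, with 15 of 21 negative in day 8 minus day 0 and 10 in day 8 minus day 16. Mitosis genes had medians of -0.04, 0.06 and 1.19, and 26 of 27 were negative in day 8 minus day 16.

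Over all genes the difference at day 8 minus that at day 16 passed for 2720 (16.7%), 1336 positive (8.2%) and 1384 negative (8.5%). The number depended on single libraries. Without the first or second WT library of day 16 it was 1596 or 1624. Some genes passed with opposite signs at day 8 and at another day, and in the test of the difference. Against day 0, 44 were higher at day 8 and lower at day 0, and 44 the reverse. Against day 16, 110 were higher at day 8 and lower at day 16, and 91 the reverse. With the same sign at both days, 314 genes passed at days 8 and 0, and 5167 at days 8 and 16.

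**Figure D5:**
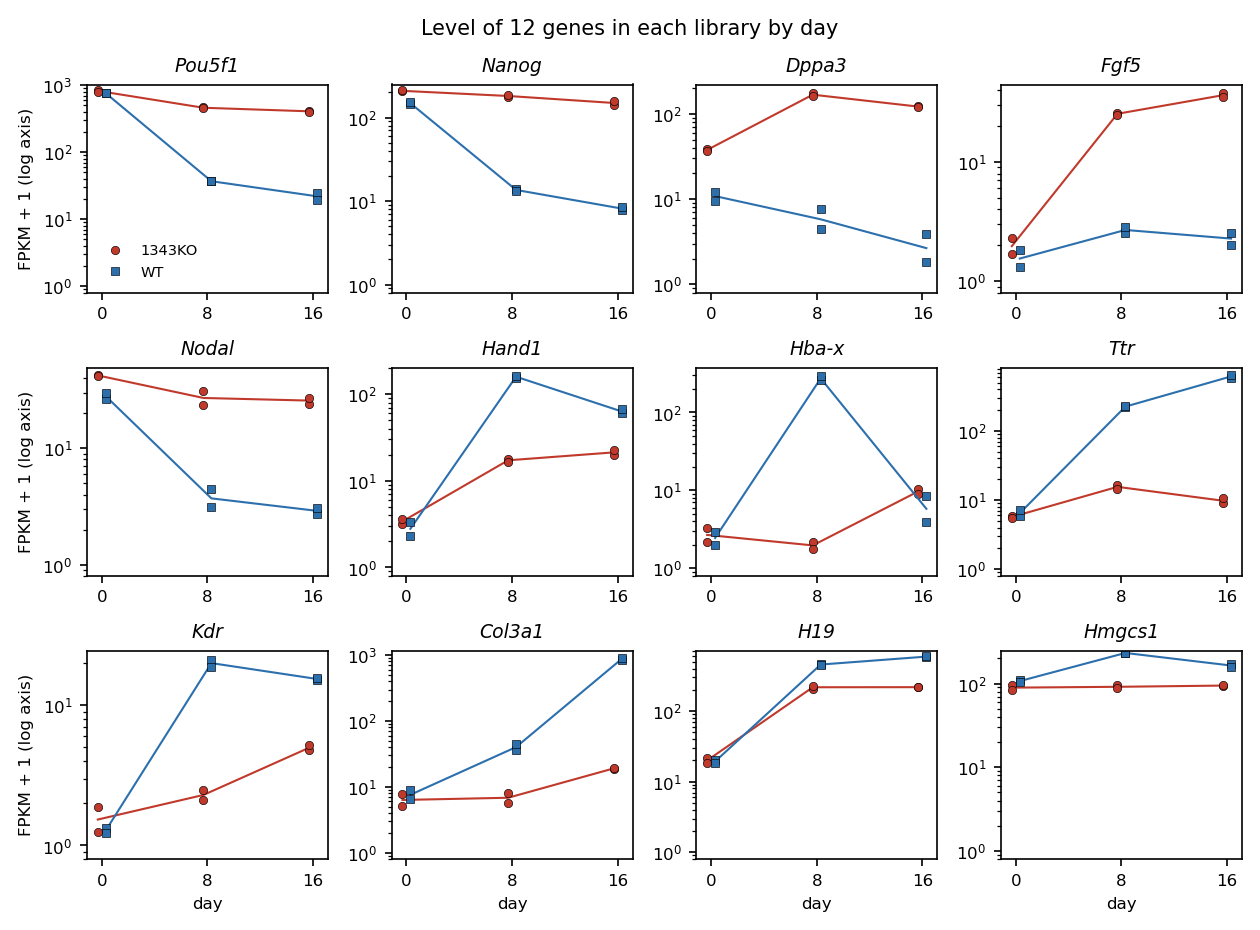
Level of 12 genes in each of the 12 libraries at days 0, 8 and 16, as FPKM + 1 on a log axis; red circles are 1343KO libraries, blue squares WT libraries, and lines join the geometric means of the 2 libraries. Pou5f1, Nanog and Nodal are higher in 1343KO than in WT at days 8 and 16, Hba-x peaks in WT at day 8 with no such peak in 1343KO, and Ttr and Col3a1 continue to climb in WT to day 16.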

How the data were processed

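Polyadenylated RNA from 1343KO and WT cells at days 0, 8 and 16 was measured in 12 libraries, 2 per group. The authors deposited FPKM values for 54537 genes; Cufflinks 2.1.1 and GRCm38 are named in the submitters' processing notes, and the aligner is not given in the sources used here. FPKM are not counts, so log2(FPKM + 1) was fitted with limma 3.58.1 in R 4.3.3 over all 6 groups, which left 6 residual degrees of freedom, and p-values were Benjamini-Hochberg adjusted over all 16289 genes tested. Genes needed at least 1 FPKM in at least 2 libraries. The depth is not stated; low FPKM values were near whole multiples (within 5%) of 1 fragment for 84.6 to 88.4% of values, and the estimates range from 4883000 to 8083000 fragments. Among 6620 genes whose median reached 10 FPKM, 17 have a 0 in some library, so a 0 may be a failed estimate. The fit was tested on simulated data. Members and gene lists were chosen with earlier results of these data known. Named genes are key members of each list and the 15 largest rises and falls. Alternatives were other pseudocounts, filters, scalings and designs, and leaving out libraries. Gene positions and small RNAs are from GENCODE M21 and promoters from RefSeq (GRCm38.p6). Some list members are not reported here.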

Additional observations from a re-analysis of the deposited data

Results flagged for a closer look

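The difference between 1343KO and WT at day 8 differed from that at day 0 for 4605 genes and from that at day 16 for 2720 genes, by the test of the difference itself. Some named genes passed at both days with opposite signs, and their day 8 difference minus that of the other day is given on the log2 scale. Against day 0 it was 1.53 for Rcc1, 1.06 for Dnmt3a, -3.40 for Id2, -2.82 for Id3 and 2.30 for Tcf15. It was -1.75 for Fn1, -3.28 for Acta2, -1.16 for Krt8, -1.52 for Krt18, -3.07 for Peg3 and -0.98 for Ccng1. Against day 16 it was -2.04 for Lin28a, -5.18 for Cfc1, -2.10 for Id3, -2.98 for Actc1 and -3.23 for Myl7. It was 2.30 for Myl2, 4.28 for Thbs1, -1.11 for Mki67, -1.49 for Slc2a1 and -1.47 for Slc2a3.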

How the results depend on the processing

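A minimum log2 change of 1 left 938 calls at day 8, 449 higher and 489 lower, and 228 list genes in place of 644. It left 472 for day 8 minus day 0 (206 positive, 266 negative) and 249 for day 8 minus day 16 (201 and 48). Requiring a mean of 5 FPKM left 701 positive for day 8 minus day 16. Leaving out 1 library at a time gave 5399 to 6951 calls at day 8 and 566 to 642 list genes. For day 8 minus day 0 it gave 3571 to 4450, and for day 8 minus day 16 it gave 1596 to 2640, with 644 to 1305 positive and 888 to 1335 negative. The lowest negative count was without the second 1343KO library of day 8, and the lowest positive count without the second WT library of day 16. The replicate block gave 3761 higher and 3141 lower genes. Deviations of same-numbered 1343KO and WT libraries of day 8 correlated at 0.018, so no shared deviation was seen. That value cannot tell whether the libraries were handled in pairs, and the labels do not say. Of 219 called named genes, 140 kept the call under every alternative that tested them, and 20 lost it under at least 1 other than the minimum change. Differences that did not pass changed sign for Fgf8 (-0.062 after TPM scaling, -0.12 to 0.34 leaving out 1 library), for Plk1 (-0.069) and Mdm2 (-0.077) after TPM scaling, and for Ldha (-0.0896 to 0.0299 leaving out 1 library). The cause was not tested.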

Other observations

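Ligands and receptors of Wnt and FGF signalling went both ways at day 8. Of 26 tested Wnt genes 9 were higher in 1343KO bodies and 9 lower, with a median log2 difference of 0.13. Porcn, the acyltransferase that lipidates Wnt ligands, had 12.7 and 9.56 FPKM in 1343KO bodies, against 1.39 and 1.25 FPKM in WT bodies (2.38 ± 0.20 SE, adjusted p = 1.60e-05), and Notum, which removes that lipid, had 5.96 and 8.56 FPKM in 1343KO bodies, against 0.448 and 0.418 FPKM in WT bodies (2.51 ± 0.24 SE). Wnt5a, a ligand of posterior mesoderm, had 1.79 and 2.5 FPKM in 1343KO bodies, against 11.1 and 12.3 FPKM in WT bodies (-2.02 ± 0.25 SE). Both 1343KO libraries lay above both WT libraries for the enzymes and below them for the ligand. Of 23 FGF and ERK genes 9 were higher and 7 lower (median 0.11). Fgf4, the FGF of the early epiblast, had 45.6 and 49.1 FPKM in 1343KO bodies, against 2.47 and 3.15 FPKM in WT bodies (3.67 ± 0.19 SE). The receptor Fgfr3 had 2.42 and 2.36 FPKM in 1343KO bodies, against 23.6 and 19 FPKM in WT bodies (-2.71 ± 0.27 SE), and Klb, a coreceptor of endocrine FGFs, had 1.32 and 0.726 FPKM in 1343KO bodies, against 8.74 and 8.57 FPKM in WT bodies. For both receptors the 1343KO libraries lay below the WT libraries. These genes were chosen after their values were seen.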
